A study of Mus musculus with 6 samples.

Results

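The transcripts of 10 genes of the DNA methylation machinery were followed in AE9a leukemia cells of the mouse. The genes were the maintenance pair Dnmt1 and Uhrf1, the de novo methyltransferases Dnmt3a and Dnmt3b, the oxidising enzymes Tet1, Tet2 and Tet3, the isocitrate dehydrogenases Idh1 and Idh2, and the chromatin regulator Asxl1. They were chosen by name, as genes of this machinery that are recurrently studied in myeloid leukemia, and not by a rule on their values, although earlier results of these data were known when they were chosen. All 10 were rows of the table, which held 53618 named rows. Of these 10 genes, 9 were among the 12298 genes with a normalized count of at least 10 in at least 3 libraries, and Tet1 was not.

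The libraries were bulk RNA-seq of GFP+Lin-c-Kit+ splenocytes, 1 library per recipient mouse. AE9a is a truncated form of the AML1-ETO fusion protein, and the leukemia was started by a retrovirus carrying AE9a and GFP in fetal liver cells of Usp18+/f UBCER-Cre mice and passed on to C57BL/6 wild-type recipients of both sexes after sub-lethal irradiation. Recipients that had become sick received corn oil (3 mice, Usp18+/f cells) or tamoxifen in corn oil (3 mice, Usp18+/Δ cells), and the cells were sorted 3 days after the first injection. Cells of both groups came from Usp18+/f leukemia with AE9a and a tamoxifen-inducible Cre driven by the ubiquitin C promoter, which is active in most cell types. Tamoxifen itself and the deletion therefore cannot be told apart between these groups. Usp18 encodes a brake on type I interferon signaling, and the comparison asks which transcripts of leukemia cells differ after its partial loss.

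DNA methylation is copied and removed in a cycle. DNMT1 restores methyl groups on the new strand after replication, guided by UHRF1, which binds hemimethylated CpG sites, while DNMT3A and DNMT3B place methyl groups on unmethylated DNA. The TET proteins oxidise 5-methylcytosine with alpha-ketoglutarate and iron, and the oxidised bases are diluted by replication or excised by repair enzymes. IDH1 in the cytosol and IDH2 in mitochondria produce alpha-ketoglutarate, and their mutant forms in myeloid leukemia make 2-hydroxyglutarate, which inhibits the TET proteins. ASXL1 works on chromatin rather than on DNA, as the partner of the BAP1 deubiquitinase that acts on histone H2A. DNMT3A, TET2, IDH1, IDH2 and ASXL1 are frequent mutation targets in human myeloid disease, but the values below count transcripts and say nothing of mutations, enzyme activity or methylation.

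Coding stretches of Tet2 and Tet3 are shown because these paralogues carry the same active site in sequences of different base composition, and base composition went with the largest deviations of the 9 tested genes between libraries. Each stretch is 93 bases of the longest coding transcript (GENCODE vM21, GRCm38, 5′ to 3′ on the transcript). The capitals mark a histidine codon of the iron-binding site, codon 1303 of Tet2 (exon 10, minus strand, chr3:133471376-133471378) and codon 1085 of Tet3 (exon 10, minus strand, chr6:83373230-83373232).
Tet2: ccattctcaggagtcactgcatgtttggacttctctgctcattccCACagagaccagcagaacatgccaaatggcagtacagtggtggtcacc
Tet3: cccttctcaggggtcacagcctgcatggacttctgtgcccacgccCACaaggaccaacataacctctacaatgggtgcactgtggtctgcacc
These stretches were identical at 67 of 93 bases (72.0%), and 16 of the 26 differences were at wobble positions, the last base of a codon. Over the whole coding sequence, wobble positions were G or C in 46.9% of the codons of Tet2 and in 66.3% of those of Tet3. Tet2 was thus the paralogue of lower GC content.

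Whole reads recovered from the table numbered 22367916 to 23785143 per library under the oil label and 19172471 to 23131620 under the tamoxifen label. A normalized count is the reads of a gene divided by the size factor of its library, which is the unit the authors deposited. The library labelled tamoxifen 1 stood apart from the other 5. Its median correlation with them was 0.913 across genes, against 0.981 to 0.990 for the others, and mitochondrial genes took 0.00923% of its reads, against 1.01% to 1.56%. Across 10807 protein-coding genes, its difference from the other libraries went with the GC content of the transcript (Spearman's rho 0.72, against -0.083 to 0.13 in the others). The targeted gene was not lower under the tamoxifen label: Usp18 was counted at 217, 214 and 176 in oil 1, 2 and 3 and at 477, 329 and 284 in tamoxifen 1, 2 and 3 (normalized counts, log2 fold change 0.81, limma adjusted p = 0.666). It was higher under the tamoxifen label in all 21 alternative fits, and passed the threshold in 1 of them, with library weights (0.52, limma adjusted p = 0.0348). These are counts over the whole gene, in which reads of the intact and the deleted allele were not separated, and 1 intact allele remains in Usp18+/Δ cells. The counts therefore do not report on the deletion itself, and they do not show a label to be wrong. Why they were higher was not tested, and directions below are between labels. Kit, which encodes the receptor used in the sort, had 7512 to 8990.5 normalized counts in oil and 4687 to 10976 in tamoxifen, and the 7 leukemia or progenitor markers together had 35639.9 to 41703 and 32814 to 40004. Summed macrophage markers (9 genes, none at 0 in all libraries) were 95.5 to 225 in oil and 255 to 366 in tamoxifen, and summed neutrophil markers (6 genes, 1 at 0 in all libraries) were 4.64 to 7.72 and 22.7 to 43.5, so both sums were higher in each library labelled tamoxifen. Of all genes tested, 7.86% were likewise higher in each. Several macrophage markers overlapped between the groups when read singly. None of the 6 neutrophil markers had counts high enough to be tested, and 2 had at most 3 reads in any library. Summed erythroid markers (7 genes) were 49381 to 69331 in oil and 54623 to 85519.8 in tamoxifen, highest in tamoxifen 1. They exceeded the summed leukemia or progenitor markers in each library. Summed B cell markers (5 genes) were 4.64 to 9.65 in oil and 6.06 to 24.3 in tamoxifen. The erythroid and B cell sums overlapped between the groups. Of the 5 NK cell markers, 4 were at 0 in all libraries, as were 2 of the 6 T cell markers, Cd3e and Cd8a. The part of other cell types in the values below was not tested, and in bulk RNA fewer cells of a type and less RNA per cell cannot be told apart.

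None of the 9 tested genes passed the threshold between the labels. With limma on log2(normalized count + 1) over all 6 libraries, 0 of the 9 had an adjusted p under 0.05, as did 0 of all 12298 genes tested (0%). At an unadjusted p under 0.05 there were 0 of the 9 and 550 of the 12298, and edgeR on the recovered reads called 0 genes with 594 at that unadjusted level. DESeq2 on the recovered reads called 71 of 15444 genes (0.460%), none of them among the 9. The log2 fold changes of tamoxifen over oil lay between -0.42 and 0.38, with 7 above and 2 below 0 and a median of 0.26, while the median of all genes tested was -0.017. Without the library labelled tamoxifen 1 the 9 lay between -0.15 and 0.24, with 5 above and 4 below 0 and a median of 0.0054, and the median of all genes was -0.021. That fit called 41 genes (0.333%), again none of the 9. Library weights, which gave tamoxifen 1 a weight of 0.0377 against 0.956 to 3.37 for the others, called 782 genes (6.36%) and none of the 9. In 2 of the 9, Dnmt3b and Tet3, each library labelled tamoxifen lay above each labelled oil, as it did in 7.86% of the genes tested. In 0 of the 9 did each lie below, against 9.69% of the genes tested.

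**Figure D1:**
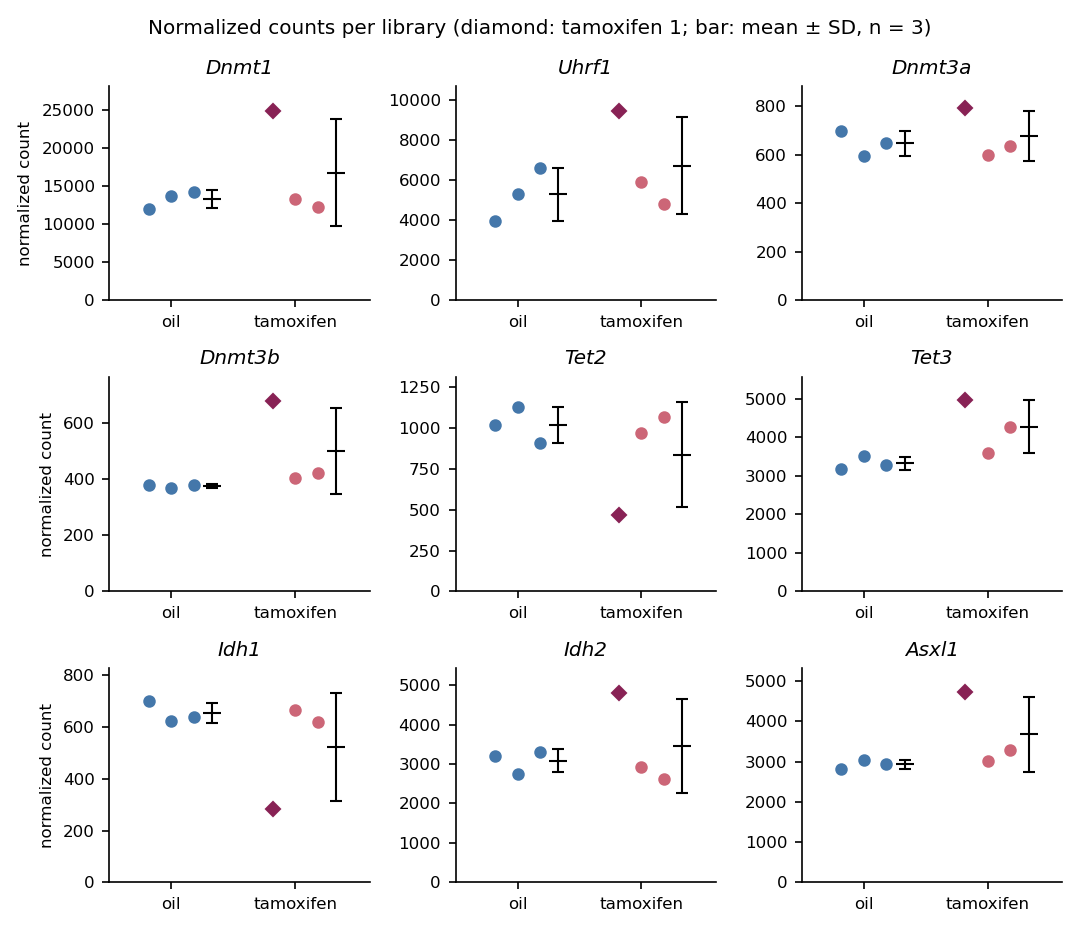
Normalized counts (vertical axes, linear, from 0) of the 9 tested genes in each of the 3 libraries labelled oil (blue circles) and the 3 labelled tamoxifen (red circles, with tamoxifen 1 as a purple diamond), in the order 1 to 3 from left to right, with the mean and SD of each group in black. Tamoxifen 1 is the highest library for Dnmt1, Uhrf1, Dnmt3a, Dnmt3b, Tet3, Idh2 and Asxl1 and the lowest for Tet2 and Idh1.

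Dnmt1, the maintenance methyltransferase (ENSMUSG00000004099.16, chr9:20907209-20959888, minus strand), was the most abundant of the 10. It had 12011, 13651 and 14269 normalized counts in oil 1, 2 and 3 and 24792, 13270.2 and 12209 in tamoxifen 1, 2 and 3. Tamoxifen 2 and 3 lay within the range of oil, and tamoxifen 1 was 1.90-fold the mean of the other 5 libraries. The means were 13311 ± 1167 in oil and 16757 ± 6978 in tamoxifen (SD, n = 3 each), and the log2 fold change was 0.26 (SE 0.29, 95% interval -0.42 to 0.94, limma adjusted p = 0.680). Without tamoxifen 1 it was -0.061 with an interval of -0.27 to 0.15, which corresponds to 0.828 to 1.11 times the oil level.

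Uhrf1, which brings DNMT1 to hemimethylated DNA (ENSMUSG00000001228.14, chr17:56303321-56323486, plus strand), differed most among the libraries labelled oil. It had 3946, 5295 and 6594 normalized counts in oil and 9437, 5906 and 4808 in tamoxifen. The groups overlapped, and tamoxifen 1 was again the highest library. The coefficient of variation in oil was 25.1%, where counting error alone gives 1.33%, and those of the other 8 tested genes were 1.70% to 10.8%. The log2 fold change was 0.32 (SE 0.30, interval -0.41 to 1.05, limma adjusted p = 0.667), and without tamoxifen 1 it was 0.045 (-0.36 to 0.45), the widest interval of the 9. It was 0.13 without oil 1, 0.50 without oil 3 and 0.53 without tamoxifen 3. Of the 100-base windows of Uhrf1 exons, 5.53% also occur in Gm5648, which had 1.86 to 10.2 normalized counts, so few reads of Uhrf1 could have been counted there. Whether reads that match both were left out of the counts is not given in the sources used here.

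The ratio of the maintenance genes was not set apart in tamoxifen 1. Uhrf1 stood at 0.329, 0.388 and 0.462 times Dnmt1 in oil and at 0.381, 0.445 and 0.394 times in tamoxifen, in raw normalized counts that are not corrected for transcript length. Tamoxifen 1 lay inside the range of the other libraries, 0.329 to 0.462, although both genes were at their highest in it. Their log2 values correlated at r = 0.91 over 6 libraries and 0.90 over the 5 without tamoxifen 1, given as a description since the genes share libraries and size factors.

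Dnmt3a, a de novo methyltransferase (ENSMUSG00000020661.15, chr12:3806007-3914443, plus strand), deviated least of the 9 in tamoxifen 1. It had 698, 593 and 649 normalized counts in oil and 792, 598 and 637 in tamoxifen. The log2 fold change was 0.056 (SE 0.18, interval -0.36 to 0.48, limma adjusted p = 0.874) and without tamoxifen 1 it was -0.064 (-0.30 to 0.17), so that the sign changed without that library. An antisense gene, Dnmt3aos, overlaps 133 exonic bases on the other strand and had at most 0.898 normalized counts.

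Dnmt3b, the paralogue (ENSMUSG00000027478.15, chr2:153649450-153687730, plus strand), was nearly constant in oil. It had 378, 367 and 377 normalized counts in oil, a coefficient of variation of 1.70% that is below the 4.99% expected from counting alone, and 676, 402 and 422 in tamoxifen. All 3 libraries labelled tamoxifen lay above the 3 labelled oil, also with tamoxifen 1 set aside. The means were 374 ± 6.35 and 500.0 ± 153 (SD, n = 3 each) and the log2 fold change was 0.38 (SE 0.24, interval -0.19 to 0.95, limma adjusted p = 0.666), or 0.14 (-0.10 to 0.38, adjusted p = 0.643) without tamoxifen 1. The difference was thus not separated from 0 in either fit.

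Dnmt3b values carry an uncertainty from its neighbour Dnmt3c (ENSMUSG00000082079.2, chr2:153696652-153729907, plus strand), a methyltransferase of male germ cells. The longest coding transcripts of both genes share an identical run of 287 bases, and 4.47% of the 100-base windows of Dnmt3b exons occur in Dnmt3c. Dnmt3c was counted at 136, 139.9 and 123 in oil and at 149.5, 143 and 90.0 in tamoxifen, with the groups overlapping. How reads that match both were shared out is not given in the sources used here.

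The ratio of the de novo enzymes differed more in tamoxifen 1 than elsewhere. Dnmt3b stood at 0.542, 0.618 and 0.581 times Dnmt3a in oil, at 0.853 times in tamoxifen 1, and at 0.672 and 0.662 times in tamoxifen 2 and 3. All 3 ratios in tamoxifen lay above those in oil, which is a description without a test.

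Tet1 (ENSMUSG00000047146.17, chr10:62804570-62908996, minus strand), the TET enzyme best known from embryonic stem cells, was at the floor. It had 0, 0 and 1 reads in oil and 1, 1 and 4 in tamoxifen, in libraries of 19172471 to 23785143 reads. A count of 0 allows up to 3 reads, so 5 of the 6 libraries held no order for this gene, and no fold or ratio was formed from it.

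Tet2 (ENSMUSG00000040943.12, chr3:133463679-133545139, minus strand), the TET enzyme most often mutated in myeloid disease, was low in a single library. It had 1019.5, 1129 and 909 normalized counts in oil and 470.3, 971 and 1069 in tamoxifen. Tamoxifen 2 and 3 lay within the range of oil, while tamoxifen 1 was 0.461 times the mean of the others. The log2 fold change was -0.37 (SE 0.33, interval -1.15 to 0.42, limma adjusted p = 0.666), and without tamoxifen 1 it was 0.0054 with an interval of -0.24 to 0.25, or 0.848 to 1.19 times the oil level. Its overlap with Gm42567 on the other strand is 43 exonic bases, and that gene had at most 3.59 normalized counts.

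Tet3 (ENSMUSG00000034832.15, chr6:83362373-83459084, minus strand) had the smallest p of the 9. It had 3169, 3514 and 3289.8 normalized counts in oil and 4967, 3604 and 4256 in tamoxifen. The lowest library labelled tamoxifen, tamoxifen 2, lay just above the highest labelled oil. The means were 3324 ± 175 and 4275 ± 682 (SD, n = 3 each), and the log2 fold change was 0.35 (SE 0.16, interval -0.036 to 0.74), with a limma unadjusted p of 0.0685 and an adjusted p of 0.666. Without tamoxifen 1 it was 0.24 (interval 0.033 to 0.44, limma unadjusted p = 0.0275, adjusted p = 0.343), the one interval of the 9 that left out 0 in that fit, where 1488 of the 12298 genes had an unadjusted p under 0.05. Over the 21 alternatives the fold change stayed between 0.22 and 0.47 and the adjusted p between 0.0611 (library weights) and 0.861.

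Tet3 exceeded Tet2 in all 6 libraries. In raw normalized counts Tet3 was 3.11, 3.11 and 3.62 times Tet2 in oil, 10.6 times in tamoxifen 1, and 3.71 and 3.98 times in tamoxifen 2 and 3. In tamoxifen 1 Tet3 was at its highest and Tet2 at its lowest.

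Idh1, the cytosolic isocitrate dehydrogenase (ENSMUSG00000025950.16, chr1:65158616-65186500, minus strand), was the gene of the 9 that lay farthest below the other libraries in tamoxifen 1. It had 699, 625 and 638 normalized counts in oil and 285, 664 and 620.2 in tamoxifen. Tamoxifen 1 was 0.439 times the mean of the other 5 libraries, which spanned only 620.2 to 699. The log2 fold change was -0.42 (SE 0.34, interval -1.22 to 0.39, limma adjusted p = 0.666), and without tamoxifen 1 it was -0.026 with an interval of -0.25 to 0.20.

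Idh2, the mitochondrial enzyme (ENSMUSG00000030541.16, chr7:80094846-80115392, minus strand), had 3200.4, 2744 and 3293 normalized counts in oil and 4812, 2926 and 2623 in tamoxifen. Without tamoxifen 1 it was the gene with the lowest fold change of the 9, at -0.15 (interval -0.37 to 0.071, limma adjusted p = 0.577), although with all 6 libraries the value was 0.12 (SE 0.25, interval -0.48 to 0.72, adjusted p = 0.815). Its sign changed without tamoxifen 1, and also with all 6 libraries after a correction for GC content (-0.072). Idh2 was 4.58, 4.39 and 5.16 times Idh1 in oil, 16.9 times in tamoxifen 1, and 4.41 and 4.23 times in tamoxifen 2 and 3, in raw normalized counts.

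Asxl1 (ENSMUSG00000042548.14, chr2:153345829-153404007, plus strand) varied little outside tamoxifen 1. It had 2806, 3036 and 2948 normalized counts in oil and 4739, 3015 and 3277 in tamoxifen, with overlapping groups. The log2 fold change was 0.30 (SE 0.20, interval -0.18 to 0.77, limma adjusted p = 0.666), and without tamoxifen 1 it was 0.10 (-0.073 to 0.28). A gene on the other strand, 2500004C02Rik, shares 197 exonic bases with it and had 10.2 to 75.5 normalized counts, so that reads of both genes could be exchanged if strand was not used in counting.

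**Figure D2:**
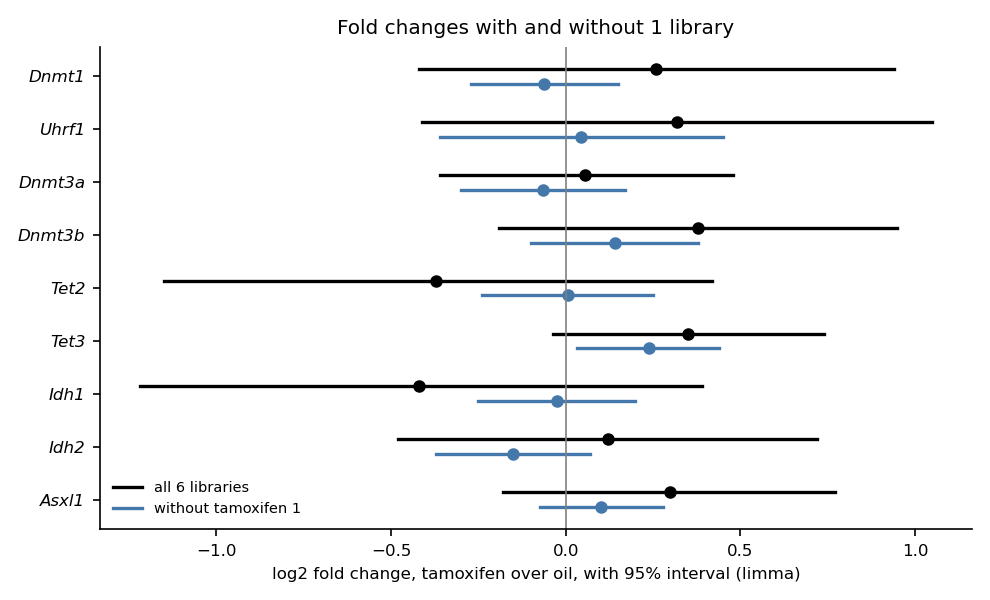
Log2 fold change of tamoxifen over oil (horizontal axis, limma) with its 95% interval for the 9 tested genes, over all 6 libraries (black) and without tamoxifen 1 (blue). The intervals over 6 libraries all include 0, and without tamoxifen 1 they are narrower and only that of Tet3, 0.033 to 0.44, does not.

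Per length, the 10 genes spanned a wide range of levels in oil. Divided by the length of the longest coding transcript in kilobases, Dnmt1 stood at 2268 ± 199 normalized counts per kilobase, Idh2 at 1764 ± 168 and Uhrf1 at 1472 ± 369 (SD, n = 3 each). A middle group held Asxl1 at 419.7 ± 16.6, Tet3 at 305 ± 16.0 and Idh1 at 284 ± 17.1. Tet2 followed at 111 ± 12.0, Dnmt3b at 86.6 ± 1.47, Dnmt3a at 66.8 ± 5.40 and Tet1 at 0.0215 ± 0.0373. The 3 oil libraries overlapped for the neighbours Idh2 and Uhrf1 and for Tet3 and Idh1, and did not for the other pairs of neighbours above Tet1. Divided by the merged length of all exons instead, 3 pairs of neighbours changed places, with Uhrf1 at 1239 above Idh2 at 1189.7, Idh1 at 236 above Tet3 at 199, and Dnmt3b at 73.2 above Tet2 at 60.4 per kilobase. The maintenance enzymes were thus far above the de novo enzymes on either length, and Tet3 was above Tet2.

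Tamoxifen 1 was the library farthest from the mean of the others for 9 of the 9 tested genes, as it was for 74.6% of all genes tested. On the log2 scale, it was higher by 0.93 for Dnmt1, 0.85 for Uhrf1, 0.80 for Dnmt3b, 0.71 for Idh2, 0.65 for Asxl1, 0.49 for Tet3 and 0.32 for Dnmt3a. It was below the others for Tet2 (-1.11) and Idh1 (-1.18). The transcripts of the 7 higher genes had a GC content of 51.7% to 55.4%, and those of Tet2 and Idh1 of 45.4% and 43.8%.

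These deviations were set beside those of protein-coding genes within 1 percentage point of the same GC content. For Dnmt1 the median of 1189 such genes was 0.46 (10th to 90th percentile -0.33 to 1.11), and for Idh2 that of 1119 genes was 0.62 (-0.29 to 1.22). For Tet2 the median of 1014 genes was -0.54 (-1.65 to 0.36), and for Idh1 that of 947 genes was -0.84 (-1.82 to 0.091). Each of the 9 lay inside the 10th to 90th percentile of its GC neighbours. After a correction of each library for GC content, the log2 fold changes of all 6 libraries were 0.10 for Dnmt1, 0.17 for Uhrf1, -0.13 for Tet2, -0.11 for Idh1 and -0.072 for Idh2, and 0.26, 0.24, 0.22 and -0.0081 for Dnmt3b, Asxl1, Tet3 and Dnmt3a, none with a limma adjusted p under 0.676.

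**Figure D3:**
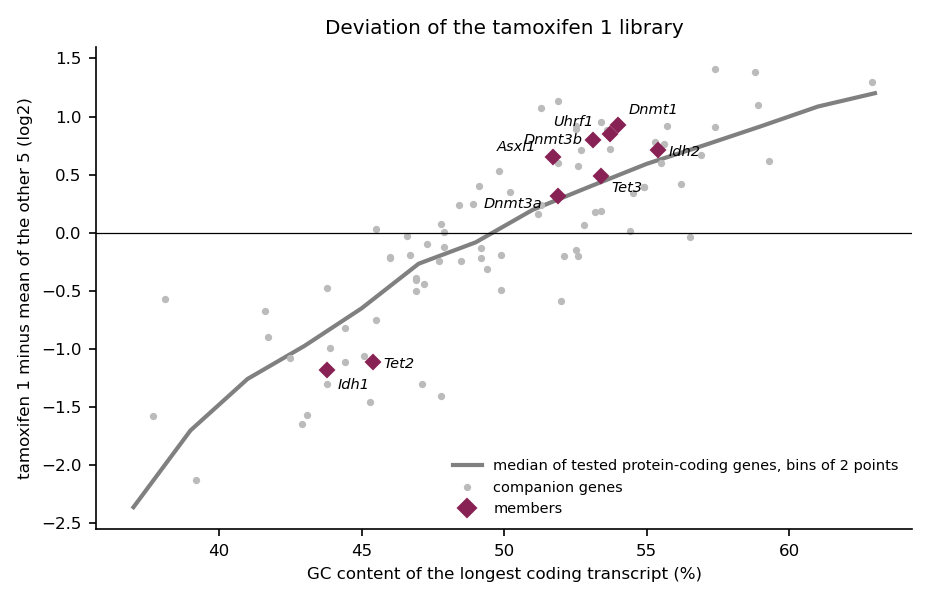
Log2 difference between tamoxifen 1 and the mean of the other 5 libraries (vertical axis) against the GC content of the longest coding transcript in percent (horizontal axis), for the 9 tested genes (purple diamonds), companion genes of the pathway (grey points) and the median of tested protein-coding genes in bins of 2 percentage points with at least 50 genes (grey line). Tet2 and Idh1 lie at low GC content and below 0, and the other 7 at higher GC content and above 0.

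Among the oil libraries, Uhrf1 and Dnmt1 had the order of most replication genes, an order that 21.6% of all genes tested also had. Of 15 genes of DNA replication and S phase, 14 were lowest in oil 1 and highest in oil 3, with ratios of oil 3 to oil 1 of 1.20 to 1.54 over those 14, and this order held in 21.6% of all genes tested. The exception, Mki67, named after its values were seen, was lowest in oil 1 and highest in oil 2. Uhrf1, at 1.67, and Dnmt1, at 1.19, had the same order as the 14. Of the other 7 tested genes none had it, and their ratios were 0.892 to 1.05. The 9 tested genes thus had this order about as often as all genes tested, and a link to replication was not tested. On the log2 scale relative to the mean of the 5 libraries without tamoxifen 1, Uhrf1 stood at -0.41, 0.018 and 0.33 in oil and 0.18 and -0.12 in tamoxifen 2 and 3. The median of the replication genes stood at -0.19, 0.038, 0.24, 0.074 and -0.15 in the same libraries. In tamoxifen 1 Uhrf1 was at 0.85, inside the range of the 15 replication genes, which ran from -1.30 to 1.38 with a median of 0.034.

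**Figure D4:**
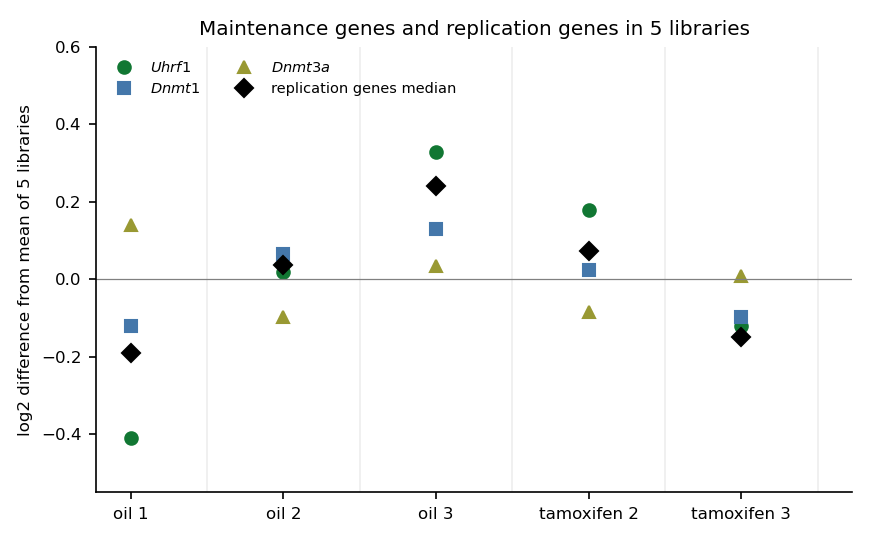
Log2 difference of each library from the mean of the 5 libraries without tamoxifen 1 (vertical axis) for Uhrf1 (green circles), Dnmt1 (blue squares), Dnmt3a (olive triangles) and the median of 15 replication genes (black diamonds), by library (horizontal axis). Uhrf1, Dnmt1 and the replication median are lowest in oil 1 among the oil libraries and highest in oil 3, and Dnmt3a is highest in oil 1.

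Around the 10 genes, 85 companion genes of the pathway were read from the same fit, of which 79 were tested. None passed the adjusted threshold over all 6 libraries (limma), where 0% of all genes did. In that fit 1 of the 79, Gadd45a, had an unadjusted p under 0.05, as did 550 of the 12298 genes tested. The 6 not tested were Dnmt3l, Dppa3, Asxl3, Cxxc4, Cxxc5 and Ebf1, which had at most 12.1 normalized counts in any library.

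The 8 methyl-CpG readers, which bind methylated DNA, had 3 values above and 5 below 0 (median -0.072, and 0.013 without tamoxifen 1). Mbd4, a reader that is also a glycosylase, had 353, 432 and 412 normalized counts in oil and 262, 321 and 322 in tamoxifen, each library labelled tamoxifen below each labelled oil (-0.40, limma adjusted p = 0.666). Zbtb33, which encodes the reader Kaiso, had 1521, 1342 and 1366 in oil and 300.3, 1291 and 1099 in tamoxifen, again without overlap, and its log2 fold change of -0.90 became -0.24 without tamoxifen 1.

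Of the partners of maintenance and de novo methylation, 6 of 8 were tested, with 1 value above and 5 below 0 (median -0.27, and -0.058 without tamoxifen 1). Pcna, the replication clamp, had 8278, 9249 and 11364 normalized counts in oil and 3360.0, 9635 and 8026 in tamoxifen. Uhrf2, a relative of Uhrf1, had 1224, 1385 and 1274 in oil and 928, 1274 and 1159 in tamoxifen. Both groups overlapped, and tamoxifen 1, where Uhrf1 was at its highest, was the lowest library for both genes.

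Genes of base excision repair, a path by which oxidised methylcytosine can be removed, had 6 values above and 3 below 0 among 9 (median 0.08, and -0.13 without tamoxifen 1). Ung, a uracil glycosylase, had 541, 693 and 956 normalized counts in oil and 2078, 948 and 849 in tamoxifen (0.74, limma adjusted p = 0.666). Apex1, the endonuclease that cuts abasic sites, had 249, 283 and 329 in oil and 624, 330.4 and 300.1 in tamoxifen (0.47). In both genes tamoxifen 1 was the highest library, and its log2 deviation from the others, 1.41 for Ung and 1.07 for Apex1, lay above the 90th percentile of genes of like GC content (1.37 and 0.93).

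The 14 genes of alpha-ketoglutarate and 2-hydroxyglutarate metabolism split into 7 above and 7 below 0 (median -0.033, and -0.06 without tamoxifen 1). Idh3a, a subunit of the NAD-dependent isocitrate dehydrogenase, had 4205, 4612 and 5231 normalized counts in oil and 3305, 4764 and 3388 in tamoxifen. Fh1, fumarate hydratase, had 4197, 4285 and 4623 in oil and 3549, 4250.3 and 3641 in tamoxifen. Both overlapped between the groups, with log2 fold changes of -0.31 and -0.20.

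The 11 genes of the methyl donor cycle, which supplies S-adenosylmethionine, had 6 values above and 5 below 0 (median 0.026, and -0.051 without tamoxifen 1). Ahcyl2, a relative of adenosylhomocysteinase, had 1069.8, 1168 and 1100.3 normalized counts in oil and 938, 963 and 823 in tamoxifen. It did not overlap between the groups, and its log2 fold change was -0.30 with and -0.32 without tamoxifen 1 (interval -0.54 to -0.10, limma adjusted p = 0.241 in that fit). Mat2a, which makes S-adenosylmethionine, had 6121, 6558 and 7328 in oil and 2179, 6472 and 5926 in tamoxifen.

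Of the 13 genes of the ASXL, BAP1 and PRC2 complexes, 12 were tested, with 5 values above and 7 below 0 (median -0.12, and -0.026 without tamoxifen 1). Ezh2, the histone H3 lysine methyltransferase of PRC2, had 2750.4, 2783 and 3034 normalized counts in oil and 1296, 2791 and 2639 in tamoxifen. Kdm6a, which removes the mark that Ezh2 places, had 4528, 4659.8 and 4356 in oil and 2015, 4083 and 3802 in tamoxifen, each library labelled tamoxifen below each labelled oil (-0.52, and -0.20 without tamoxifen 1, interval -0.36 to -0.028, limma adjusted p = 0.342).

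The 15 replication genes had 6 values above and 9 below 0 (median -0.046, and -0.06 without tamoxifen 1). Slbp, which binds histone mRNA, had 1982, 2199.7 and 2446 normalized counts in oil and 859, 2218 and 1802 in tamoxifen. Rrm1, a subunit of ribonucleotide reductase, had 8143, 8771 and 9764 in oil and 4798, 8906 and 7125 in tamoxifen. Tamoxifen 1 was the lowest library for both genes, but over the 15 it was the lowest for 3 and the highest for 5.

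Of the TET partners and recruiters, 5 were tested, with 4 values above and 1 below 0 (median 0.34, and 0.019 without tamoxifen 1). Gadd45a, a stress-induced gene whose product has been linked to demethylation, had 88.9, 105 and 99.4 normalized counts in oil and 175, 136 and 202 in tamoxifen, without overlap. Its log2 fold change was 0.79 (SE 0.23, interval 0.23 to 1.34, limma unadjusted p = 0.0125, adjusted p = 0.666), and 0.76 (0.30 to 1.22, adjusted p = 0.189) without tamoxifen 1. Gadd45b, its paralogue, had 63.8, 22.2 and 59.4 in oil and 85.6, 67.7 and 76.4 in tamoxifen (0.78, adjusted p = 0.666).

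**Figure D5:**
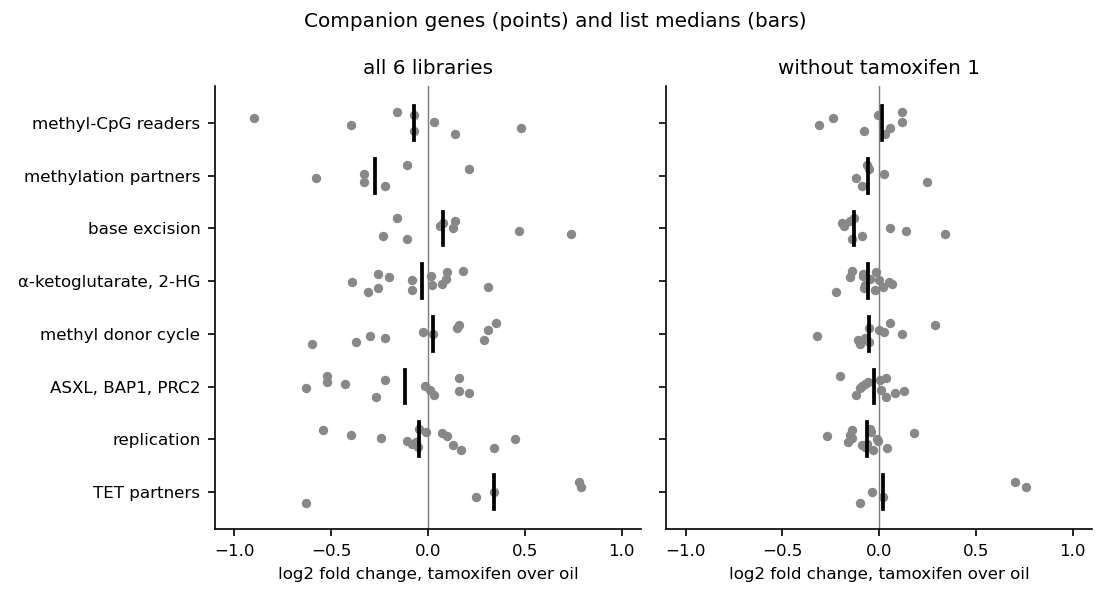
Log2 fold change of tamoxifen over oil (horizontal axes, limma) of the tested companion genes (grey points) in 8 lists (vertical axis), with the median of each list as a black bar, over all 6 libraries (left) and without tamoxifen 1 (right). Without tamoxifen 1 the list medians lie between -0.13 and 0.019, against -0.27 to 0.34 over 6 libraries.

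The genes with the pattern most like that of Dnmt1, Tet2 and Idh2, by Pearson's r of log2 values over the 6 libraries, were read as a description. For Dnmt1 they were Erp29, Fanca and Stk11, for Tet2 Gm42638, Hdhd2 and Arid4b, and for Idh2 Elof1, Eif3m and Atg4d. All 9 had r of 0.9965 or more over 6 libraries and of 0.97 or more over the 5 without tamoxifen 1. Of the 12298 genes, 2478, 2911 and 1621 had r above 0.9 with Dnmt1, Tet2 and Idh2. Tamoxifen 1 was the highest library for the 3 genes nearest to Dnmt1 and to Idh2 and the lowest for those nearest to Tet2, among them Arid4b with 1413, 1501 and 1335 normalized counts in oil and 829, 1346 and 1439.6 in tamoxifen.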

How the data were processed

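The authors deposited 1 table of a normalized signal under the name of counts. Each value is a gene's reads over the size factor of the library, as from a STAR and DESeq2 pipeline on mm10 (submitters' processing notes). Versions, annotation, strand setting and how multiply matching reads were shared out are not given in the sources used here, and the labels give a kit for tagmentation of DNA. In each library 100% of the values were whole multiples of 1 step (tolerance 0.01 reads), and dividing by it recovered whole reads. Of 55450 rows, 1832 had no gene name (0.0400% to 0.0614% of reads) and were left out. A floor of 3 reads covers counting error only.

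The test was limma 3.58.1 (R 4.3.3, lmFit and eBayes with trend) on log2(value + 1) for 12298 genes with a value of at least 10 in at least 3 libraries. Two-sided p-values were adjusted over these genes with the Benjamini-Hochberg method (threshold 0.05). Fold changes on this scale understate those of low genes. The fit was tested on simulated data. Alternatives were DESeq2 1.42.0, edgeR 4.0.16 and limma voom on recovered reads, TMM and upper-quartile scaling, pseudocounts of 0.5 and 5, no filter or 1 CPM in 3 libraries, each library left out in turn, library weights, a loess correction for GC content (span 0.3) and the replicate number as a block. DESeq2 and edgeR without tamoxifen 1 were added after seeing the data. GC content and coordinates came from GENCODE vM21 (GRCm38), matched by symbol. The labels name no batch, so none was tested. The members and lists were chosen with earlier results of these data known. Companion genes named were the 2 of each list with the smallest unadjusted p, and genes of like pattern the 3 with the highest r. The result of 1 cell type marker gene and 1 coding sequence are not reported here.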

Additional observations from a re-analysis of the deposited data

How the results depend on the processing

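In 21 alternative fits, 0 of the 9 tested genes passed the threshold. Of the 189 fold changes of these genes, 167 kept their direction and 22 reversed, 17 of them in fits that left out or downweighted tamoxifen 1. Dnmt3b, Tet3, Idh1 and Asxl1 kept their direction in all 21, though Idh1 moved from -0.42 to -0.026 without tamoxifen 1 and to -0.05 with library weights. Without tamoxifen replicate 1 the reversed log2 fold changes were -0.061 for Dnmt1, -0.064 for Dnmt3a, 0.0054 for Tet2 and -0.15 for Idh2. With edgeR on those libraries they were -0.045, -0.047, 0.021 and -0.13, and with DESeq2 -0.05, -0.053, 0.016 and -0.14. Library weights gave -0.093 for Dnmt1, -0.01 for Dnmt3a, -0.032 for Uhrf1, 0.0008 for Tet2 and -0.15 for Idh2. GC correction gave -0.0081 for Dnmt3a and -0.072 for Idh2, with and without the replicate block. Leaving out oil replicate 2 gave -0.0044 for Dnmt3a. When 1 library was left out, the values ranged from -0.061 to 0.45 for Dnmt1, -0.064 to 0.14 for Dnmt3a, 0.045 to 0.53 for Uhrf1, -0.59 to 0.0054 for Tet2, -0.63 to -0.026 for Idh1 and -0.15 to 0.29 for Idh2. The cause was not tested.

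The count of all genes past the threshold moved from 0 to between 0 and 41 when 1 library was left out (0 to 38 higher, 0 to 3 lower), with the upper value without tamoxifen 1. It moved to 782 (470 higher, 312 lower) with library weights, 2 (both higher, Cdkn1a and Gzmb) with GC correction, 71 (69 and 2) with DESeq2, and, without tamoxifen 1, 46 (43 and 3) with edgeR and 230 (174 and 56) with DESeq2. Library weights called 2 companion genes, Ahcyl2 and Gadd45a, and the other fits 0. Same-numbered samples did not deviate together (r = -0.0236, 0.0607 and -0.153), so no pairing by number was seen. The deviations were taken from group means that include tamoxifen 1, so this check cannot exclude pairing. The replicate block called 0 genes, with 426 at an unadjusted p under 0.05 in place of 550.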

Other observations

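Of the 79 companion genes tested, 2 (Ahcyl2 and Gadd45a) passed the threshold with library weights, where 6.36% of all genes tested did. Their log2 fold changes were -0.40 (SE 0.09, limma adjusted p = 0.0231) and 0.89 (SE 0.17, adjusted p = 0.0116), and in both genes the 3 libraries labelled tamoxifen lay on one side of the 3 labelled oil, as they did, above or below, in 7.86% and 9.69% of all genes tested. In the other 20 alternatives neither passed. Library weights were estimated from the same libraries.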
